A study of Homo sapiens with 9 samples.

Results

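The genes examined here encode the machinery that attaches chromosomes to the mitotic spindle, checks that attachment and ends mitosis. They were chosen by symbol from the probe annotation of the array, through a list of name patterns covering centromere proteins, kinetochore complexes, checkpoint proteins, mitotic kinases, the anaphase-promoting complex, condensin, cohesion regulators and spindle proteins, and 72 of the 14884 genes with a symbol matched. Of these 72 genes, 66 had a place in one of 9 groups by role, and 6 matched by letters alone (the pseudogenes ANAPC1P1, ANAPC1P2 and CENPBD2P, the antisense transcript PRC1-AS1, and ECT2L and PTTG1IP, which are distinct genes with similar names). Another 20 symbols of the role list, among them NUF2, TPX2, UBE2C and the non-SMC subunits of condensin, are not analysed here. Expression was measured on 9 one-channel Affymetrix whole-transcript arrays in SMS-KCNR, a human neuroblastoma cell line. All cells were harvested after 30 hours, with DMSO as the solvent control, with simvastatin at 5 µM, or with simvastatin at 5 µM together with mevalonate at 2 mM, and each of the 3 groups held 3 arrays. All arrays came from this single line, and the groups held no culture with mevalonate alone, so an effect of mevalonate without the drug was not measured. The samples are described as independent, without saying whether they were separate cultures. Each p-value therefore weighs a difference between groups against the spread among these arrays, which may be technical.

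A kinetochore is the protein assembly built on each centromere. Its inner part binds chromatin that contains the histone variant CENPA, and its outer part holds microtubules through the NDC80 complex. Kinetochores without microtubules recruit the spindle checkpoint proteins, which keep CDC20 from activating the anaphase-promoting complex, a ubiquitin ligase. Once all chromosomes are attached, the complex marks securin and cyclin B for destruction, separase opens cohesin, and the sister chromatids part. Many of these genes are transcribed mainly in the G2 phase and in mitosis, from promoters that carry CCAAT boxes bound by NF-Y and a cell cycle homology region, known as a CHR, that is bound by the DREAM and MuvB complexes. Others, among them most subunits of the anaphase-promoting complex, are expressed throughout the cycle. Simvastatin blocks HMG-CoA reductase, the enzyme that makes mevalonate, and added mevalonate enters the pathway behind the block.

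Across the 14884 genes, arrays of a group correlated with r from 0.994 to 0.996, and pairs of a DMSO and a simvastatin array with r from 0.99 to 0.992. HMGCS1, an enzyme of the mevalonate pathway whose transcript rises when sterols run short, rose by 1.66 ± 0.05 (SE) on the log2 scale with simvastatin (limma, adjusted p = 3.08e-06). The 12 measured noradrenergic markers had group means from 8.06 to 12.85, against a median of 5.19 over all probesets and arrays. All 3 measured blood and endothelial markers lay below that median in every group, as did 1 of 4 Schwann and glial markers (ERBB3) and 0 of 5 mesenchymal markers. Schwann and glial means ran from 4.63 to 5.90, and mesenchymal means from 5.45 for PRRX1 to 11.04 for SNAI2. Of the markers of other cells, 0 of 4 Schwann and glial genes and 0 of 3 blood and endothelial genes changed with simvastatin (limma; 0 and 1 at an unadjusted p under 0.05), while 2 of 5 mesenchymal genes fell and 1 rose. Noradrenergic markers fell in 8 of 12 cases. The shares over all genes with simvastatin were 7.38% lower and 5.98% higher. The part of such shifts in the results was not tested.

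With simvastatin, 35 of the 72 genes fell and 0 rose against DMSO (limma, Benjamini-Hochberg adjusted p under 0.05 over all genes). Among all genes, 7.38% fell and 5.98% rose. The falls were led by HMMR, which encodes a spindle protein, by the checkpoint kinase BUB1 and by the centromeric histone CENPA. In all 35 cases the 3 simvastatin arrays lay below the 3 DMSO arrays, an order that selection by the test makes likely. Over all 72 genes, 46 showed this order and 1 the reverse, against 14.7% and 13.9% of all genes. The change ran from -1.46 to 0.14 on the log2 scale, with a median of -0.18 over the 72 genes and 0.005 over all genes tested. HMMR alone passed a 2-fold change, and 19 genes moved by at least 0.5 on the log2 scale. A total of 43 genes had an unadjusted p under 0.05, and each of these was lower. For such unadjusted counts, here and elsewhere in the text, the share over all genes was not computed. In such bulk RNA, fewer cells in mitosis and less RNA per cell cannot be told apart.

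**Figure D1:**
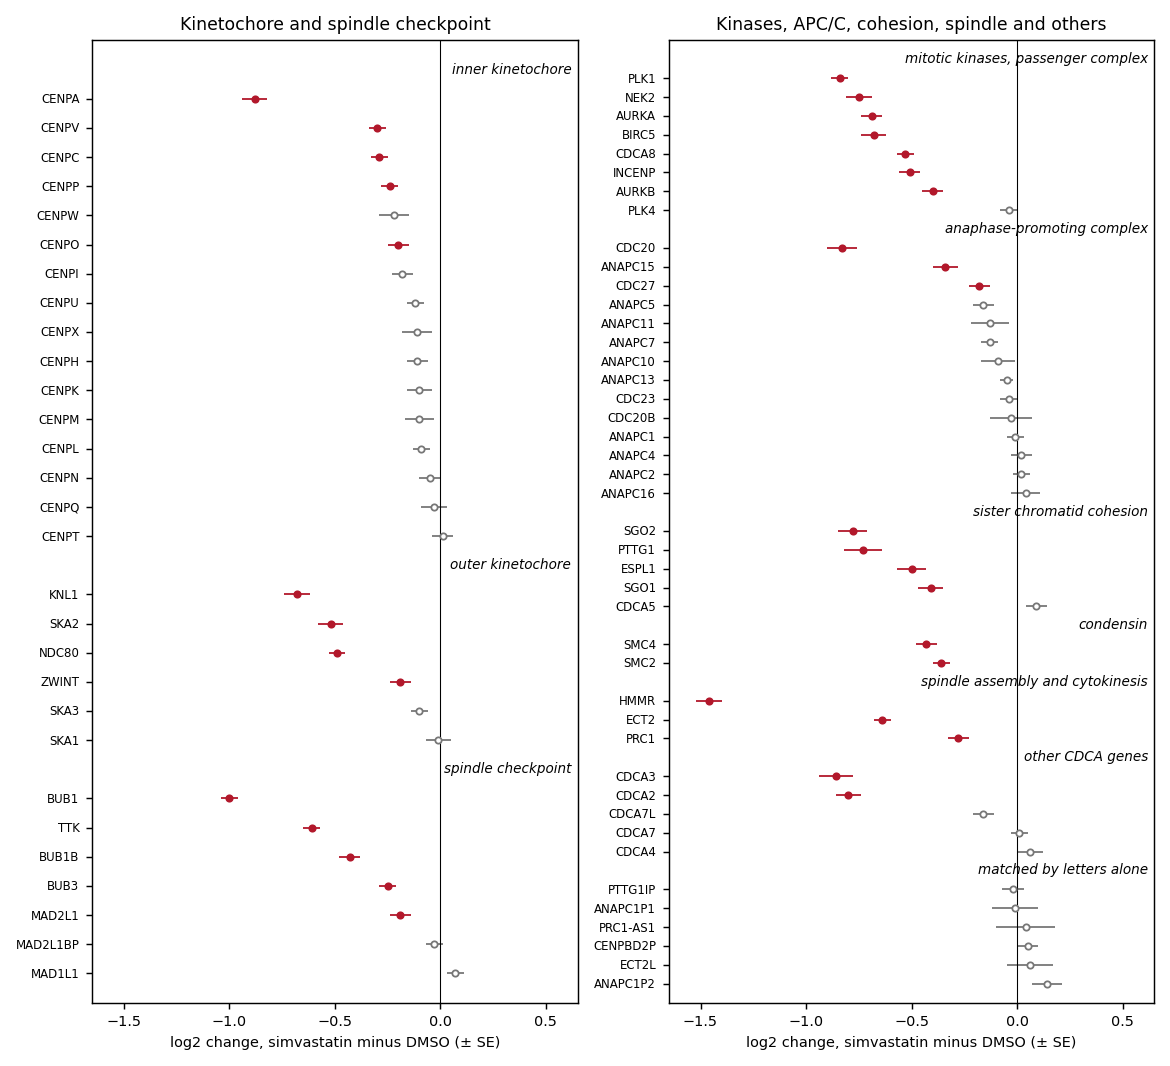
Log2 change of each of the 72 genes, simvastatin minus DMSO (3 arrays per group), grouped by role; bars are limma's standard errors, filled red points passed the test and open grey points did not. Red points lie to the left of 0 in every role group but that of the genes matched by letters alone, and HMMR is the farthest at -1.46.

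The promoters of these genes were set beside their changes, because many genes of this machinery are known for CHR and CCAAT elements. RefSeq promoter windows (GRCh38.p14, 250 bases before to 50 bases after each transcription start) were found for 60 of the 72 genes. The 120 bases just before the start are printed for the 6 genes with the largest falls that had a single window and a CHR core in this stretch, and for the 3 genes of the role groups with a single window and the smallest changes. They are written 5′ to 3′ on the strand of the gene. Capitals mark the CHR core, searched as TTTGAA or TTCGAA on both strands, and the CCAAT pentamer on both strands, which reads ATTGG in reverse. The stretches lie at chr5:163460512-163460631 (plus strand) for HMMR, chr2:26785936-26786055 (plus) for CENPA, chr16:23678769-23678888 (plus) for PLK1, chr1:43358861-43358980 (plus) for CDC20, chr1:37692396-37692515 (plus) for CDCA8 and chr11:62123891-62124010 (plus) for INCENP.
HMMR: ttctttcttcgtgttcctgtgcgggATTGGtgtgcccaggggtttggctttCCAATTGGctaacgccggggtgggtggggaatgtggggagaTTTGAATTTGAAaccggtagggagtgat
CENPA: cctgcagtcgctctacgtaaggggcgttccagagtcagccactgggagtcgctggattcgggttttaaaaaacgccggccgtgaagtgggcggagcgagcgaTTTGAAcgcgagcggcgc
PLK1: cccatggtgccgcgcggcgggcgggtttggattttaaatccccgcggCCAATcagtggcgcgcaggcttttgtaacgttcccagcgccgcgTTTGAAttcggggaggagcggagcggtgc
CDC20: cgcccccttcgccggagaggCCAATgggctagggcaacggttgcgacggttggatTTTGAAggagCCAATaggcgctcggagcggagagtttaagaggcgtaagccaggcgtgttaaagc
CDCA8: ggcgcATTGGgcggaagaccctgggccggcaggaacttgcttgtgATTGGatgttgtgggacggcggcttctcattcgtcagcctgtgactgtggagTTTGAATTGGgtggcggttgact
INCENP: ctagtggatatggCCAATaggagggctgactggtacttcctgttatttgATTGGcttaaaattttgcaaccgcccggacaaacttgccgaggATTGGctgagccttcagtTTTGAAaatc

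In HMMR 2 CHR cores stand back to back, beginning 28 and 22 bases before the start. The core of PLK1 begins 29 bases before the start, that of CDCA8 23 bases, that of CENPA 18 bases and that of INCENP 10 bases. CDC20 carries a core 65 bases before the start, between a pair of CCAAT pentamers, and a reversed one 178 bases before the start, outside the printed stretch. In CDCA8 the core overlaps a reversed CCAAT pentamer. The CCAAT pentamers of CENPA lie farther upstream, at 205 and 130 bases before the start, and outside the printed stretch.

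The stretches of the genes that changed least lie at chr2:111884194-111884313 (minus strand) for ANAPC1, chr2:173354752-173354871 (plus) for CDCA7 and chr18:50374926-50375045 (plus) for SKA1, and they hold no capital.
ANAPC1: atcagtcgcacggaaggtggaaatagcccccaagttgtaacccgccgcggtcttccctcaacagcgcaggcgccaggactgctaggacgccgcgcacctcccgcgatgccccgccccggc
CDCA7: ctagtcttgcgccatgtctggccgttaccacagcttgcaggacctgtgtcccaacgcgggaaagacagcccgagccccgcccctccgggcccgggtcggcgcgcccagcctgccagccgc
SKA1: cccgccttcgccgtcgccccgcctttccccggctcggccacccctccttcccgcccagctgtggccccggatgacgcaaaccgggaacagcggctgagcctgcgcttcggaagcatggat

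Over whole windows, a CHR core was found in 20 of the 29 genes that fell and had a promoter (69.0%). It was found in 11 of the 31 that did not pass the test (35.5%), ANAPC1 and SKA1 among them with a core after the start, and in 17.0% of all tested genes with a promoter. A CCAAT pentamer was found in 23 of 29 (79.3%), 13 of 31 (41.9%) and 41.4% respectively. Both elements occurred in 15 of 29 (51.7%), 3 of 31 (9.68%) and 7.1%. The 31 genes include ECT2L, PTTG1IP and PRC1-AS1, which matched by letters alone and whose windows held no core. Some genes have several windows, which raises their chance of a match, and among genes with a single window a core occurred in 16 of 20 that fell and in 8 of 25 that did not pass. Counted per window, 16.4% of the 35116 windows in the table held the core, 34.6% the CCAAT pentamer and 6.38% both. These shares describe letters in a window, and occupancy by a factor was not measured. In 9 of 29 genes that fell it lay wholly within the last 40 bases before the start, against 1 of 31 that did not pass (CDCA5) and 1.96% of all tested genes, a distance chosen after the positions were seen. Cores that overlapped the start or lay within a few bases of it occurred in BUB1, SGO1, CDCA3, NDC80 and SMC2, which fell, and also in SKA3 and CENPN, which did not pass. The genes that fell without a core included NEK2, PTTG1, SGO2, SKA2 and AURKB, each with CCAAT pentamers.

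**Figure D2:**
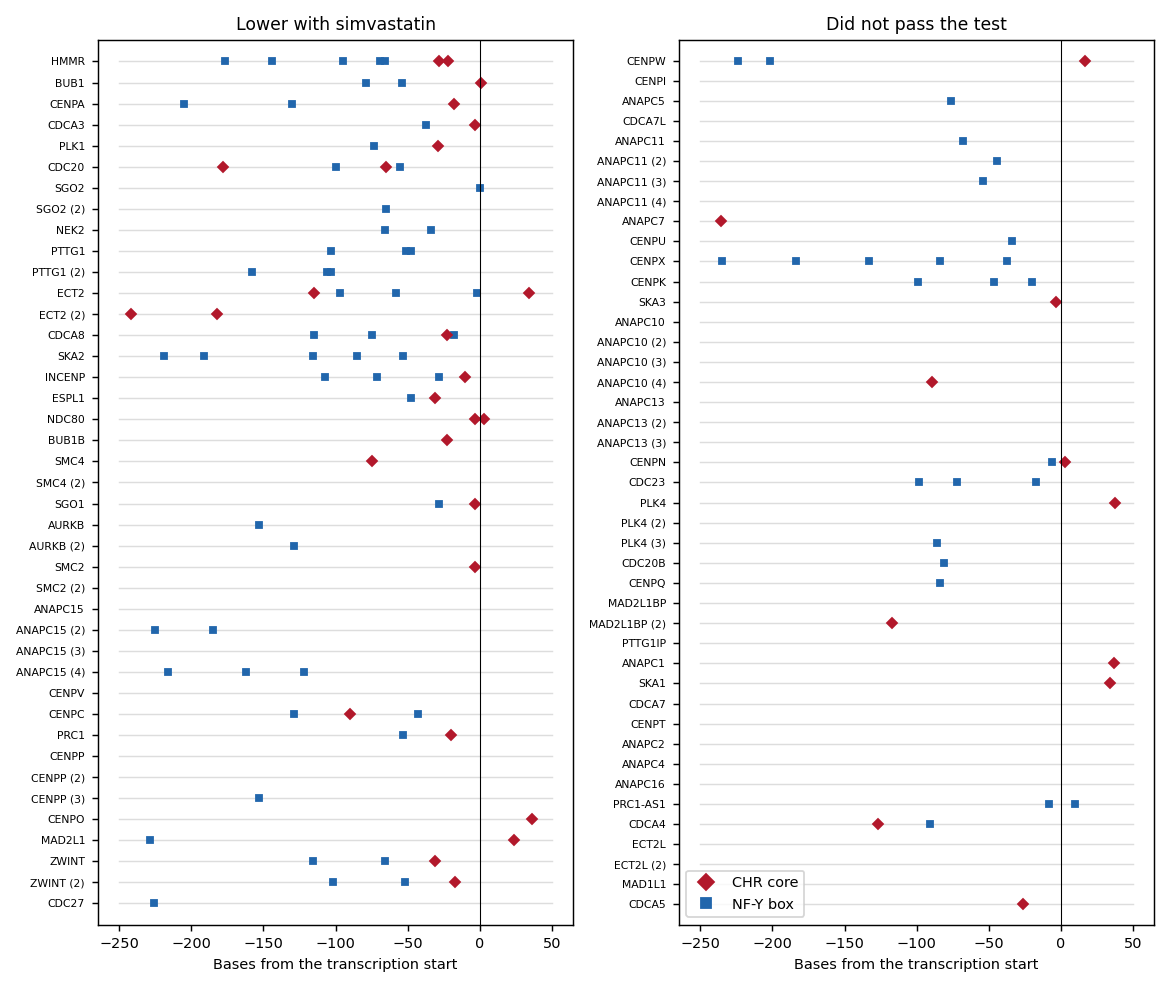
First base of each CHR core (red diamonds) and CCAAT pentamer (NF-Y box, blue squares) in RefSeq promoter windows, in bases from the transcription start, for genes lower with simvastatin (left) and genes that did not pass the test (right), ordered by change, 1 line per window with further windows of a gene numbered. Cores cluster just before the start on the left, where 20 of 29 genes hold one, against 11 of 31 on the right.

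In the inner kinetochore 5 of 16 genes fell, with a median log2 change of -0.11. For this and each following role group, the share to set beside such counts is the 7.38% of all genes that fell. CENPA, the histone variant that marks the centromere, read 9.14, 9.17 and 9.17 with DMSO and 8.40, 8.21 and 8.25 with simvastatin. The groups were far apart, and the change was -0.88 ± 0.06 (SE), or 1.84-fold lower (limma, adjusted p = 3.5e-05). CENPV read 9.32, 9.31 and 9.30 with DMSO and 9.04, 8.94 and 9.05 with simvastatin. It fell by 0.30 ± 0.04 on the log2 scale, as did CENPC, which ties CENPA chromatin to the outer kinetochore, by 0.29 ± 0.04. CENPP (-0.24 ± 0.04) and CENPO (-0.20 ± 0.05), which belong to the same subcomplex of the constitutive centromere network, also fell. CENPU (-0.12 ± 0.04) and CENPQ (-0.03 ± 0.06) of that subcomplex did not pass. CENPU did pass with a trended and robust estimate of the spread (adjusted p = 0.0123) and among genes above the median probeset (0.0393). The CENPO call was lost when DMSO array 1 or 3, or simvastatin array 1 or 3, was left out (adjusted p from 0.0694 to 0.0825). It was also lost with a replicate block (0.0662), with only the groups compared (0.0728) and with adjustment over all probesets (0.0928). The other 11 inner genes lay between CENPW at -0.22 ± 0.07 (adjusted p = 0.0688) and CENPT at 0.01 ± 0.05. CENPW passed without simvastatin replicate 1 (adjusted p = 0.049), and CENPI (-0.18 ± 0.05, adjusted p = 0.0504) without simvastatin plus mevalonate replicate 3 (0.0487). CENPT, which carries a second route from chromatin to NDC80, read 6.82 on each DMSO array and 6.85, 6.82 and 6.83 with simvastatin. Its 95% interval ran from -0.09 to 0.12, and its groups overlapped.

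In the outer kinetochore 4 of 6 genes fell, with a median log2 change of -0.34. KNL1, the scaffold on which BUB1 and BUB3 gather, read 9.39, 9.38 and 9.45 with DMSO and 8.72, 8.84 and 8.63 with simvastatin. Its groups did not overlap, and it was 1.6-fold lower (-0.68 ± 0.06, adjusted p = 0.000164). SKA2, a subunit of the SKA complex that holds on to shortening microtubules, read 9.17, 9.18 and 9.11 with DMSO and 8.64, 8.51 and 8.74 with simvastatin (-0.52 ± 0.06). The other subunits of the same complex did not pass, with SKA3 at -0.10 ± 0.04 (adjusted p = 0.168) and SKA1 at -0.01 ± 0.06 (adjusted p = 0.956). SKA1 read 7.19, 7.16 and 7.24 with DMSO and 7.19, 7.21 and 7.16 with simvastatin, so its groups overlapped. NDC80, which binds the microtubule, was 1.41-fold lower (-0.49 ± 0.04). ZWINT, a partner of KNL1, fell by 0.19 ± 0.05 on the log2 scale. That call was lost without 7 of the 9 arrays taken singly, all but DMSO replicate 3 and simvastatin replicate 1 (adjusted p from 0.0511 to 0.112).

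In the spindle checkpoint 5 of 7 genes fell, and the size of the fall differed widely among them. BUB1, a kinase that gathers checkpoint proteins at the kinetochore and also marks centromeric histones for shugoshin, read 9.95, 9.98 and 10.01 with DMSO and 9.01, 8.97 and 8.96 with simvastatin. It was 1.99-fold lower (-1.0 ± 0.04), and its adjusted p of 4.77e-06 was the smallest among the 72 genes. TTK, the kinase that starts the checkpoint signal, read 9.21, 9.17 and 9.22 with DMSO and 8.58, 8.63 and 8.55 with simvastatin (-0.61 ± 0.04, adjusted p = 3.42e-05). BUB1B, the pseudokinase that binds CDC20 as part of the inhibitory complex, fell by 0.43 ± 0.05 and its partner BUB3 by 0.25 ± 0.04. MAD2L1, the other CDC20 inhibitor, fell by 0.19 ± 0.05 (adjusted p = 0.036), a call lost without 7 of the 9 arrays, all but simvastatin plus mevalonate replicates 1 and 2 (0.0512 to 0.116). MAD1L1, which brings MAD2L1 to the kinetochore, stood at 0.07 ± 0.04. MAD2L1BP, which takes the inhibitory complex apart, read 7.23, 7.28 and 7.25 with DMSO and 7.23, 7.26 and 7.2 with simvastatin, and those groups overlapped.

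Among the mitotic kinases and the chromosomal passenger complex 7 of 8 genes fell, with a median of -0.61. PLK1, which acts from mitotic entry to cytokinesis, read 10.52, 10.54 and 10.57 with DMSO and 9.74, 9.68 and 9.70 with simvastatin. The difference of -0.84 ± 0.04 (1.79-fold lower, adjusted p = 1.11e-05) was many times the spread within the groups. NEK2, which separates the centrosomes, read 8.11, 8.12 and 8.10 with DMSO and 7.45, 7.40 and 7.22 with simvastatin (-0.75 ± 0.06). AURKA, the spindle pole kinase, was 1.61-fold lower. All 4 members of the passenger complex, which corrects faulty attachments, fell. They were BIRC5, also called survivin, at -0.68 ± 0.06, CDCA8, also called borealin, at -0.53 ± 0.04, the scaffold INCENP at -0.51 ± 0.05 and the kinase AURKB at -0.40 ± 0.05. PLK4, which controls centriole duplication, read 9.14, 9.19 and 9.16 with DMSO and 9.13, 9.13 and 9.11 with simvastatin. It did not pass (-0.04 ± 0.04, 95% interval -0.13 to 0.05, adjusted p = 0.618).

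Around the anaphase-promoting complex 3 of 14 genes fell, where 7.38% of all genes did, and the median change was -0.07. CDC20, the activator that the checkpoint holds back, read 9.25, 9.17 and 9.16 with DMSO and 8.34, 8.47 and 8.27 with simvastatin. It was 1.78-fold lower (-0.83 ± 0.07, adjusted p = 0.000137), and the groups lay far apart. Of the core subunits, ANAPC15, which helps to release CDC20 from the checkpoint complex, read 7.64, 7.74 and 7.71 with DMSO and 7.23, 7.44 and 7.40 with simvastatin (-0.34 ± 0.06, adjusted p = 0.00651). CDC27 fell by 0.18 ± 0.05 (adjusted p = 0.0384), but this call was lost whichever single array was left out (0.0542 to 0.0996). Its second, dimmer probeset changed by -0.60, and the mean of the pair did not pass (adjusted p = 0.116). The other core subunits lay between -0.16 for ANAPC5 and 0.04 for ANAPC16. ANAPC5 (adjusted p = 0.096) passed without simvastatin replicate 1 (0.031) and with a trended and robust estimate of the spread (0.0342). ANAPC7 (adjusted p = 0.0872) passed with that estimate (0.0164) and among genes above the median probeset (0.0423). ANAPC1, the largest scaffold subunit, read 8.88, 8.89 and 8.88 with DMSO and 8.88, 8.88 and 8.85 with simvastatin. The catalytic pair ANAPC2 (0.02 ± 0.04) and ANAPC11 (-0.13 ± 0.09) did not pass either. CDC20B, a relative of CDC20, had values from 4.0 to 4.39 and was dimmer than the median probeset, so its change is poorly determined.

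Of 5 cohesion regulators 4 fell, with a median of -0.50. SGO2, a shugoshin that shields cohesin at centromeres, read 7.44, 7.35 and 7.52 with DMSO and 6.77, 6.57 and 6.63 with simvastatin (-0.78 ± 0.07). PTTG1, or securin, the inhibitor of separase, read 6.5, 6.54 and 6.68 with DMSO and 5.75, 5.95 and 5.83 with simvastatin (-0.73 ± 0.09, adjusted p = 0.000999). Both had groups that did not overlap, and so did separase itself, ESPL1 (-0.50 ± 0.07), and the other shugoshin, SGO1 (-0.41 ± 0.06). CDCA5, or sororin, which holds cohesin closed from S phase on, read 6.96, 6.96 and 6.95 with DMSO and 6.97, 7.13 and 7.03 with simvastatin. Its simvastatin arrays were all above the DMSO arrays, the single such case among the 72 genes, where 13.9% of all genes showed that order, and it did not pass (0.09 ± 0.05, adjusted p = 0.37). SMC4 and SMC2, the paired ATPases of condensin, both fell. SMC4 read 10.61, 10.56 and 10.53 with DMSO and 10.08, 10.15 and 10.19 with simvastatin (-0.43 ± 0.05), and SMC2 9.95, 9.91 and 9.89 against 9.58, 9.56 and 9.54 (-0.36 ± 0.04).

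All 3 measured genes of spindle assembly and cytokinesis fell. HMMR, a microtubule-binding protein of the spindle poles, read 9.23, 9.35 and 9.27 with DMSO and 7.79, 7.93 and 7.74 with simvastatin, a 2.75-fold fall (-1.46 ± 0.06, adjusted p = 9.64e-06). ECT2, the exchange factor that activates RHOA at the cleavage furrow, read 10.13, 10.12 and 10.16 with DMSO and 9.51, 9.50 and 9.48 with simvastatin (-0.64 ± 0.04, adjusted p = 2.88e-05). PRC1, which bundles the central spindle, fell less, from 9.95, 9.86 and 9.92 to 9.59, 9.63 and 9.67 (-0.28 ± 0.05). Of the other genes named CDCA, CDCA3, which promotes mitotic entry, went from 7.5, 7.75 and 7.63 to 6.72, 6.86 and 6.70. CDCA2, which targets protein phosphatase 1 to chromosomes at mitotic exit, went from 8.85, 8.76 and 8.77 to 8.01, 8.08 and 7.88. Both fell, by 0.86 ± 0.08 and 0.80 ± 0.06 on the log2 scale. CDCA7, a chromatin factor that shares only the name, read 9.39, 9.35 and 9.38 with DMSO and 9.39, 9.38 and 9.38 with simvastatin. CDCA7L (-0.16 ± 0.05, adjusted p = 0.0735) and CDCA4 (0.06 ± 0.06) did not pass, though CDCA7L did without simvastatin replicate 3 (0.0427). None of the 6 genes matched by letters alone passed (limma; adjusted p of 0.3 or more), with changes from -0.02 to 0.14. ANAPC1P1 and ANAPC1P2 are copies of ANAPC1, and their probes may also take up its transcript.

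**Figure D3:**
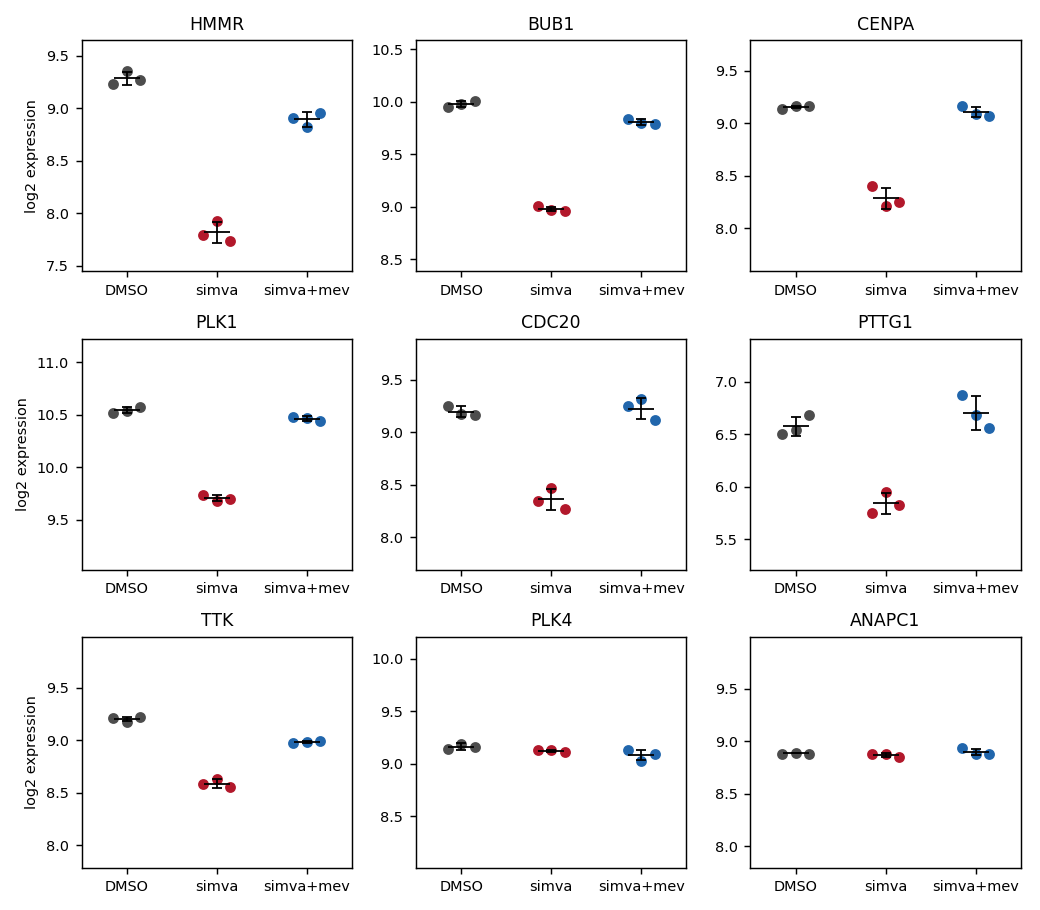
Log2 expression on each of the 9 arrays for 9 genes, with the group mean and SD (n = 3) in black; every panel spans the same log2 range. HMMR, BUB1, CENPA, PLK1, CDC20, PTTG1 and TTK are low on the simvastatin (simva) arrays and higher with mevalonate (simva+mev), while PLK4 and ANAPC1 stay level, ANAPC1 near 8.88.

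With mevalonate added to simvastatin, many of these genes were higher than with simvastatin alone. Of the 72 genes 28 rose and 0 fell against simvastatin alone (limma, adjusted p under 0.05), where 5.31% of all genes rose and 5.72% fell. The median change was 0.13 over the 72 genes and 0.004 over all genes, and 41 had an unadjusted p under 0.05, 2 of them lower. This comparison and that of simvastatin with DMSO use the same simvastatin arrays, so their values are set side by side and are not independent. HMMR read 8.91, 8.82 and 8.95 with mevalonate and was 2.1-fold higher than with simvastatin alone (1.07 ± 0.06, adjusted p = 3.42e-05). PTTG1 read 6.87, 6.68 and 6.56 (0.86 ± 0.09) and CDC20 9.25, 9.31 and 9.11 (0.86 ± 0.07). In all 28 cases the groups did not overlap, which selection by the test makes likely. Over all 72 genes, the arrays with mevalonate all lay above the simvastatin arrays in 42 and below them in 4. Among all genes the shares were 13.6% and 13.7%.

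By role, the genes that rose with mevalonate were 7 of 8 mitotic kinases and passenger proteins, 4 of 7 checkpoint genes, 4 of 16 inner and 3 of 6 outer kinetochore genes. They also included 3 of 5 cohesion regulators, both condensin ATPases, 2 of 3 spindle and cytokinesis genes, 2 of 5 other CDCA genes and 1 of 14 genes of the anaphase-promoting complex, CDC20. Among all genes 5.31% rose in this comparison, a share that 1 gene in 14 is close to. BUB1 read 9.84, 9.80 and 9.79 with mevalonate (0.83 ± 0.04, adjusted p = 1.43e-05) and TTK 8.97, 8.98 and 8.99 (0.39 ± 0.04). CENPA read 9.17, 9.09 and 9.07 (0.83 ± 0.06) and KNL1 9.22, 9.25 and 9.17 (0.48 ± 0.06). These arrays were well above the simvastatin arrays. PLK1 read 10.48, 10.47 and 10.44 (0.75 ± 0.04), NEK2 7.92, 7.92 and 7.98 (0.58 ± 0.06) and SGO2 7.44, 7.29 and 7.28 (0.68 ± 0.07). ECT2 read 10.01, 9.94 and 9.97 (0.47 ± 0.04), CDCA3 7.63, 7.54 and 7.48 (0.79 ± 0.08) and CDCA2 8.75, 8.65 and 8.67 (0.70 ± 0.06). Each of these rises passed the test.

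The smaller rises were less certain. BUB3 (0.15 ± 0.04, adjusted p = 0.0496) lost its call whichever array was left out, except simvastatin array 1 (0.0694 to 0.143). CENPI (0.21 ± 0.05) lost it when any simvastatin array, DMSO array 2, or array 2 or 3 with both agents was left out (0.0519 to 0.103). SGO1 (0.26 ± 0.06) lost it when any simvastatin array, or array 2 or 3 with both agents, was left out (0.0541 to 0.0719). SMC2 (0.17 ± 0.04; 0.0665 to 0.0953) and AURKB (0.23 ± 0.05; 0.0503 to 0.0753) lost theirs when simvastatin array 2 or 3, or array 1 or 3 with both agents, was left out. SMC4 (0.26 ± 0.05) lost it without simvastatin plus mevalonate replicate 1 or 3 (0.0547 each), and INCENP (0.26 ± 0.05) without replicate 2 or 3 of that group (0.0529 to 0.0658). ESPL1 (0.24 ± 0.07, adjusted p = 0.056) did not pass with all arrays and passed without DMSO replicate 2 (0.0388), and MAD2L1 (0.17 ± 0.05, adjusted p = 0.0668) passed without simvastatin plus mevalonate replicate 2 (0.0449). PRC1 (0.17 ± 0.05), ANAPC15 (0.17 ± 0.06), CENPC (0.11 ± 0.04) and ZWINT (0.09 ± 0.05) did not pass. All their mevalonate arrays lay above the simvastatin arrays, an order also seen in 13.6% of all genes.

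To see what remained with both agents, simvastatin plus mevalonate was set against DMSO. None of the 72 genes passed the test (limma; 22 at an unadjusted p under 0.05, each of them lower), and among all genes 0.0739% passed, 0.0403% lower and 0.0336% higher. With a trended and robust estimate of the spread 8 of the 72 genes were called lower, where 153 of all 14884 genes were. When only genes above the median probeset were tested, 4 were called lower, where 79 of 10164 were. The largest difference was that of HMMR, at -0.39 ± 0.06 (95% interval -0.54 to -0.24, adjusted p = 0.0744), whose arrays with mevalonate all lay below the DMSO arrays. Next came ESPL1 (-0.26 ± 0.07) and INCENP (-0.25 ± 0.05), then NDC80 (-0.22 ± 0.04, adjusted p = 0.0927) and TTK (-0.22 ± 0.04, adjusted p = 0.0895). In 32 of the 72 genes the arrays with mevalonate were all below the DMSO arrays, as in 9.22% of all genes, and in 1 gene, ANAPC13, they were all above, as in 7.24%. All 8 mitotic kinases and passenger proteins showed the lower order, from -0.25 for INCENP to -0.08 for PLK4 and PLK1. Other genes stood close to DMSO, with CDC20 at 0.03 ± 0.07 (95% interval -0.13 to 0.19), CENPA at -0.05 ± 0.06 (-0.18 to 0.08), CENPP at 0.00 ± 0.04 and PTTG1 at 0.13 ± 0.09 (-0.07 to 0.34). SKA1 read 7.15, 7.04 and 6.90 with both agents, below both other groups (-0.17 ± 0.06 against DMSO, adjusted p = 0.396).

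**Figure D4:**
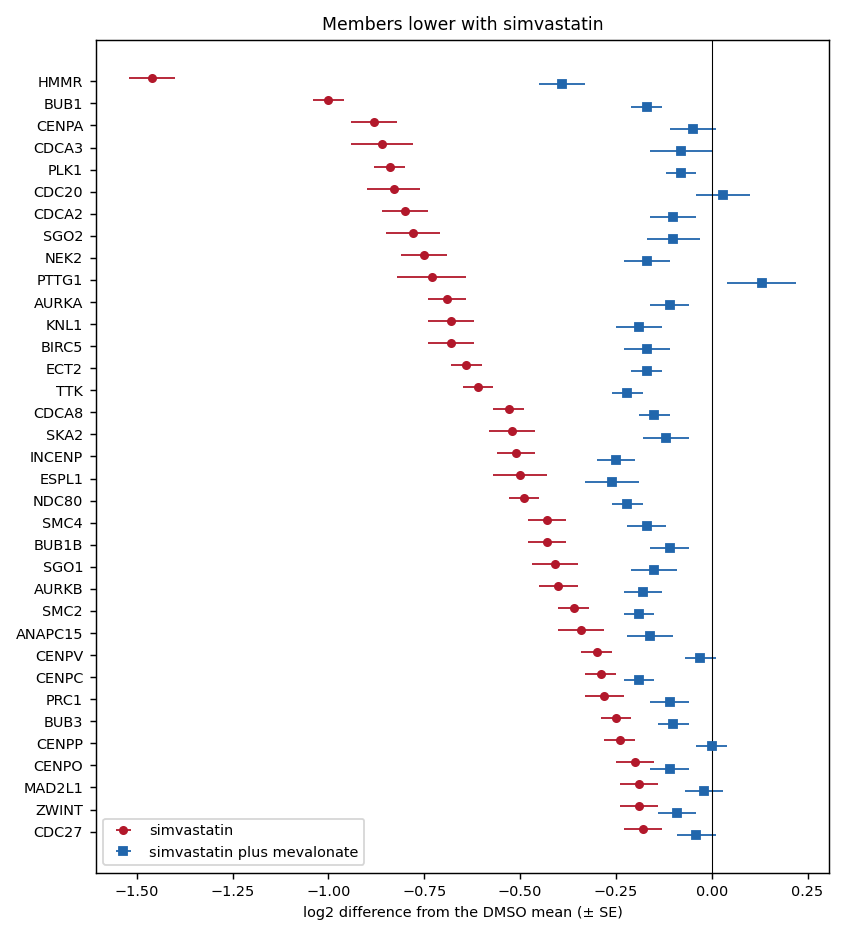
Log2 difference from the DMSO mean for the 35 genes lower with simvastatin, for simvastatin (red circles) and for simvastatin plus mevalonate (blue squares), with limma's standard errors; both differences use the same 3 DMSO arrays. The red points run from -1.46 for HMMR to -0.18 for CDC27, and the blue points lie between -0.39 and 0.13.

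Genes of mitosis outside the name patterns were examined from lists of related genes. These lists were chosen with earlier results of these data known, so they give no independent support. Of 50 measured mitotic genes 37 fell with simvastatin and 0 rose, with a median of -0.37. With mevalonate added 30 rose and 1 fell against simvastatin alone. Among all genes, 7.38% fell and 5.98% rose with simvastatin, and 5.31% rose and 5.72% fell with mevalonate added. The kinesins KIF20A (-1.14 ± 0.05), KIF14 (-1.0 ± 0.04) and KIF18A (-0.89 ± 0.06) and cyclin B1, CCNB1 (-0.84 ± 0.05), fell most. Against DMSO 0 of 50 passed with both agents (limma; 26 at an unadjusted p under 0.05), where 0.0739% of all genes passed. Cohesin and its loaders moved less, with 3 of 10 lower and 0 higher with simvastatin and a median of -0.07. They were RAD21 (-0.24 ± 0.05), the subunit cut by separase, STAG1 (-0.22 ± 0.06) and SMC1A (-0.19 ± 0.05). Of 3 measured phosphatase genes of mitotic exit 1 fell, CDC14A (-0.55 ± 0.05), and it rose with mevalonate (0.46 ± 0.05). Among 12 regulators of cell cycle transcription 5 fell and 2 rose, with a median of -0.07. TFDP2, a partner of E2F factors, rose by 0.35 ± 0.06 and LIN37, a MuvB subunit, by 0.29 ± 0.06, while LIN52, another MuvB subunit, fell by 0.33 ± 0.07. MYBL1 stood at 0.32 ± 0.10 and did not pass (limma, adjusted p = 0.073). The smaller falls were those of FOXM1 (-0.24 ± 0.05), LIN9 (-0.21 ± 0.05), RBL1 (-0.20 ± 0.05) and RBBP4 (-0.15 ± 0.04).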

How the data were processed

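The authors' deposited table holds 1 log2 value per probeset and array (53617 probesets), with the scale read from the values. GCRMA and HOMER are named in the submitters' processing notes without version or role; other steps and the genome build are not given in the sources used here. Such background correction draws dim probesets together, and normalization hides a shift of all genes. Array medians ran from 5.17 to 5.21, and no detection calls were used; precision is limited by having 3 arrays per group.

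Of the probesets, 16098 carried 1 symbol, 0 several and 37519 none. The brightest probeset per symbol was kept (14884 genes; CDC27 alone among the members had several). Differences were fitted in R 4.3.3 with limma 3.58.1 (lmFit, eBayes) over all 9 arrays, with 6 residual and 2.39 prior degrees of freedom, and adjusted by Benjamini-Hochberg over all genes at 0.05. "Rose" and "fell" mean past that threshold. The procedure was also run on simulated data with independent normal noise and fewer changed genes than were called here, and no statement in the text rests on that run. RefSeq promoters (GRCh38.p14) were searched with Python 3.11.15.

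The members, roles and lists were chosen with earlier results of these data known. Values on each array are given for the 2 largest changes and the smallest of each role group. For further lists at most 4 genes each are named, with the remaining falls added for the transcription regulators. Same-numbered arrays did not deviate together (r from -0.081 to 0.05), and the main fit did not pair them. That check cannot show whether they shared a culture or a day. Alternatives were a replicate block, only the groups compared, trended and robust moderation, quantile normalization, centring, the mean over probesets, a filter on dim genes, adjustment over all probesets and leaving out each array.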

Additional observations from a re-analysis of the deposited data

How the results depend on the processing

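Under 8 alternatives and 9 fits that each left out 1 array, the count of genes lower with simvastatin was 31 to 41 against 35, and 31 to 34 without 1 array. The count higher with mevalonate than with simvastatin alone was 21 to 35 against 28, and 21 to 27 without 1 array. In both comparisons 0 genes passed in the other direction under every one of these settings. For simvastatin plus mevalonate against DMSO the count lower was 0, and it became 8 with a trended and robust spread (HMMR, TTK, NDC80, BUB1, ECT2, INCENP, CENPC and SMC2) and 4 with genes above the median probeset (HMMR, TTK, NDC80 and SMC2; 70 of the 72 genes tested). Over all genes the count lower went from 6 of 14884 to 153 of 14884 and 79 of 10164 under these settings. The count lower among the 72 genes was 0 in the other alternatives and without each array. With the replicate number as a block, which the main fit did not use, the counts were 31, 24 and 0. Quantile normalization gave 32, 27 and 0, and centring on the median of named genes 35, 27 and 0. ANAPC2 had the same deposited value, 6.28, on 7 of 9 arrays, and ANAPC1 and CENPT each had 1 value on 6, so their spread rests on few distinct values. CDC20B and ECT2L were dimmer than the median probeset.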
